A study of Arabidopsis thaliana with 6 samples.

Results

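The GRAS proteins of the PAT1 branch and the SCL14 branch were followed in Arabidopsis leaves, as 9 of the 32678 genes of a count table. The members were chosen by locus identifier, with the values of the genotype contrast below already known. PAT1, SCL1, SCL5, SCL13 and SCL21 form the PAT1 branch. The SCL14 branch holds SCL14 with AT2G37650, AT5G59450 and AT2G29060, also listed as SCL9, SCL11 and SCL33. The reference annotation does not pair those names with these identifiers and gives the name SCL11 to the gene next to AT5G59450, so they are named by locus here. Of the 9 members, 8 passed the filter on low counts and were among the 18382 genes tested, and AT2G29060 was not.

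The study compared 35S:RPS4 plants, genotype Col-0 35S:RPS4-HS, with wild-type Col-0 plants. In 35S:RPS4 plants the constitutive 35S promoter drives the intracellular immune receptor RPS4, and how many independent lines the label covers is not stated there. Plants of both genotypes were 3.5 weeks old, had grown at 28 °C and were sampled 2 h after a move to 19 °C, which releases the receptor's signalling without any pathogen. Each group has 3 libraries of polyadenylated leaf RNA, none from before the move is analysed here, and whether the replicates are separate plants or pools is not given in the sources used here, so p-values measure only the spread between these libraries.

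GRAS proteins are plant-specific regulators that share a conserved C-terminal domain and differ at their N-termini. Most do not bind DNA strongly on their own and act as partners of DNA-binding factors. PAT1 and SCL21 are known from phytochrome A signalling and SCL13 from phytochrome B signalling. PAT1, SCL5 and SCL21 also act with ERF factors in wound regeneration. SCL14 is known as a partner of class II TGA factors in the activation of detoxification genes.

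The 250 bases before the annotated gene start (TAIR10.1, RefSeq) are shown for the 2 members with the largest difference between the genotypes, for SCL5, which had the next largest difference, and for SCL14, the branch mate of AT5G59450 with nearly equal levels in the groups. Each run reads 5′ to 3′ on the strand of its gene, and capitals mark the W-box core TTGAC, bound by WRKY factors, on either strand (GTCAA where it lies on the opposite strand).
SCL13: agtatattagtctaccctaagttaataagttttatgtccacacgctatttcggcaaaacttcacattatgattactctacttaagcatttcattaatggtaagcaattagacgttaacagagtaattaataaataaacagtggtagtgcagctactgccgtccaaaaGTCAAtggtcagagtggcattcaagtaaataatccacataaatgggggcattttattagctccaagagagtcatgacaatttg
AT5G59450: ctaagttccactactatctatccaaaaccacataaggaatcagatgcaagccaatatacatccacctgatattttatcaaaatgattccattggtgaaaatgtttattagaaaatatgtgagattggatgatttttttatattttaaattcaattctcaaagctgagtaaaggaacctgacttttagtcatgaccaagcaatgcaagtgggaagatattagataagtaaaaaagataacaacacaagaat
SCL5: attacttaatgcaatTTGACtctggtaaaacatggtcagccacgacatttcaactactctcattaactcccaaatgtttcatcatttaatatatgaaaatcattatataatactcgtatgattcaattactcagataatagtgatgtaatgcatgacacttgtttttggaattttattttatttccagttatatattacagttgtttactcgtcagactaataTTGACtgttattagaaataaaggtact
SCL14: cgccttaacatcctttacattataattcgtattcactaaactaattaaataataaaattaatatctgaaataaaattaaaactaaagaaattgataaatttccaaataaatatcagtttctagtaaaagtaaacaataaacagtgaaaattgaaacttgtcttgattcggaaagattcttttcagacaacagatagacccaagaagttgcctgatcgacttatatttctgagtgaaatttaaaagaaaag
The windows lie at chr4:9663810-9664059 (minus strand, SCL13), chr5:23974208-23974457 (plus strand, AT5G59450), chr1:18739650-18739899 (minus strand, SCL5) and chr1:2316508-2316757 (minus strand, SCL14). TTGAC began 83 bases before the start of SCL13 and 235 and 27 bases before that of SCL5, and these letters were in neither of the SCL14 and AT5G59450 windows. The single transcript of AT5G59450 is annotated 210 bases inside the gene start, and the 250 bases before that transcript held none of the 5 motifs searched either.

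The 5 motifs were counted over all 9 members. TTGAC stood in 6 of 9 windows, against 44.2% of 33054 windows of the same length over the genome. Of the 2 forms of the core bound by CAMTA factors, CGCG stood in 0 of 9, against 3308 of all 33054 windows, and CGTG, which also lies within the G-box, in 4 of 9, against 45.1%. The windows with CGTG were those of SCL1, SCL5, SCL13 and AT2G37650. The TGA core TGACG, which shares letters with TTGAC where the sites overlap, stood in 2 of 9, against 18.4%, and the G-box CACGTG in 1 of 9, against 5.86%. These matches, sought on both strands, are a description of letters in a window. The SCL21 window overlaps the neighbouring gene AT2G04900.

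Libraries held 28659022 to 31007551 gene counts. RPS4 itself had 605, 759 and 907 CPM (read counts scaled to a common library size with TMM factors) in 35S:RPS4 replicates 1 to 3, against 21.2, 29.8 and 30.2 CPM in Col-0. Over all tested genes 1188 were raised and 251 lowered in 35S:RPS4, with a median log2 fold change of 0.01. Raised and lowered genes are those that edgeR's quasi-likelihood test called, with an FDR (false discovery rate, adjusted by Benjamini-Hochberg over all tested genes) below 0.01 and a log2 fold change (log2FC, 35S:RPS4 over Col-0) beyond 1 in either direction. Of the leaf mesophyll markers 0 of 4 were called, and their summed level was 46557 to 52847 CPM in 35S:RPS4 and 46303 to 48768 CPM in Col-0. The summed guard cell markers (4 genes, none called) were at 55.4 to 57.0 CPM in 35S:RPS4 and 44.6 to 45.8 CPM in Col-0 without overlap. The 3 phloem companion cell markers overlapped between the groups, and the 2 shoot meristem markers held 1 read in all, in a 35S:RPS4 library. Of the 2 root markers BGLU22 was at 0 in every library and PYK10 at 0.0731 to 1.29 CPM in 35S:RPS4 and 0.124 to 1.30 CPM in Col-0.

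Of the 8 members tested, 2 were raised, SCL13 and AT5G59450, and 0 were lowered. Over all tested genes 6.46% were raised and 1.37% lowered. Since the members were chosen with this contrast known, their counts and differences are a description and carry no test. The median log2FC of the 8 was 0.23, against 0.01 over all tested genes. Among the listed members, each branch had 1 gene several-fold higher in 35S:RPS4. The other members differed by far less or overlapped between the groups. This holds for the member list only, since the SCL14-branch relatives AT1G07520 and AT3G46600, outside it, were raised as well (log2FC 3.96 and 2.76).

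AT5G59450 (TAIR10.1, chr5:23974458-23976791, plus strand), a member of the SCL14 branch, had 155, 157 and 168 CPM in 35S:RPS4 replicates 1 to 3, against 14.7, 15.9 and 17.1 CPM in Col-0 replicates 1 to 3. All 35S:RPS4 libraries lay far above all Col-0 libraries, and both groups were tight. The means were 160 ± 6.92 CPM in 35S:RPS4 and 15.9 ± 1.17 CPM in Col-0 (SD, n = 3 each), a log2FC of 3.33 (SE 0.09). A larger log2FC was seen for 504 of the 18382 tested genes. The raw reads behind these values were 4608, 4623 and 4582 in 35S:RPS4 and 465, 472 and 553 in Col-0. In these bulk samples more RNA per cell and more cells of an expressing type cannot be told apart, here and for the other genes, and the part of the guard cell markers' difference in it was not tested.

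SCL13 (AT4G17230, chr4:9660593-9663809, minus strand), the phytochrome B signalling member of the PAT1 branch, had 147, 249 and 248 CPM in 35S:RPS4 replicates 1 to 3, against 23.4, 31.0 and 32.7 CPM in Col-0. The groups did not overlap, and replicate 1 was the lowest library in both of them. The means were 215 ± 58.4 CPM in 35S:RPS4 and 29.0 ± 4.95 CPM in Col-0 (SD, n = 3 each), a log2FC of 2.89 (SE 0.24), or 7.40-fold. Leaving out 1 library at a time gave a log2FC of 2.74 to 3.09, and the call was kept without each of them. For AT5G59450 the same range was 3.26 to 3.38, and it too was called each time.

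SCL5 (AT1G50600, chr1:18737063-18739649, minus strand), a PAT1-branch factor of wound regeneration, had 43.9, 51.4 and 52.8 CPM in 35S:RPS4 replicates 1 to 3, against 31.2, 34.1 and 32.0 CPM in Col-0. The lowest 35S:RPS4 library lay above the highest Col-0 library, so that the groups did not overlap. Its log2FC was 0.61 (SE 0.09), or 1.52-fold, under the log2FC of 1 that a call needed. With no fold threshold SCL5 would be called too, and 7.53% of all tested genes would then be raised. That call would be lost without 35S:RPS4 replicate 2, 35S:RPS4 replicate 3, Col-0 replicate 2 or Col-0 replicate 3, with an FDR of 0.0107 to 0.0223 in edgeR. SCL5, SCL13 and AT5G59450 were the 3 of 8 tested members without overlap between the groups, all with 35S:RPS4 above, as were 17.9% of all tested genes. None lay wholly below Col-0, as did 16.3% of all tested genes.

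**Figure D1:**
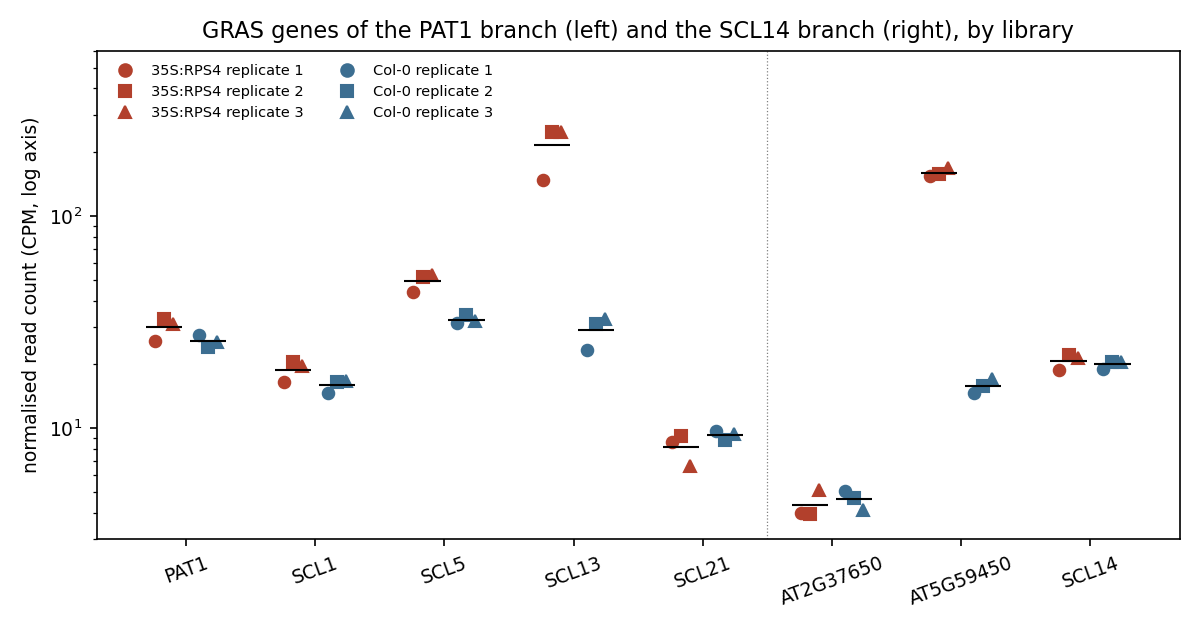
Normalised read counts (CPM, log axis) of the 8 tested members in each library, with 35S:RPS4 in red and Col-0 in blue, a symbol for each replicate number and a black line at each group mean. SCL13 (147 to 249 CPM in 35S:RPS4, 23.4 to 32.7 in Col-0) and AT5G59450 (155 to 168 CPM in 35S:RPS4, 14.7 to 17.1 in Col-0) stand apart, SCL5 differs less without overlap, and the other 5 members overlap.

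PAT1 (AT5G48150, chr5:19522238-19524788, minus strand), which gives its branch the name and acts in phytochrome A signalling, had 25.9, 32.9 and 30.9 CPM in 35S:RPS4 replicates 1 to 3, against 27.6, 24.1 and 25.4 CPM in Col-0. Replicate 1 of 35S:RPS4 fell among the Col-0 libraries, and the log2FC was 0.22 (SE 0.11). SCL21 (AT2G04890, chr2:1720361-1722604, minus strand), its closest relative by sequence and a further factor of phytochrome A signalling, had 8.62, 9.23 and 6.65 CPM in 35S:RPS4, against 9.73, 8.80 and 9.39 CPM in Col-0. Those groups overlapped as well, with a log2FC of -0.19 (SE 0.14). SCL1 (AT1G21450, chr1:7508701-7511801, plus strand) had 16.6, 20.4 and 19.7 CPM in 35S:RPS4, against 14.6, 16.5 and 16.6 CPM in Col-0. Only the lowest 35S:RPS4 library of SCL1 reached into the Col-0 range, and its log2FC was 0.25 (SE 0.11).

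SCL14 (AT1G07530, chr1:2313581-2316507, minus strand), the TGA partner, had 18.8, 22.2 and 21.4 CPM in 35S:RPS4 replicates 1 to 3, against 18.9, 20.5 and 20.6 CPM in Col-0. The Col-0 libraries lay within the range of the 35S:RPS4 libraries, and the log2FC was 0.05 (SE 0.09). Its sign turned under other scalings, at -0.13 with upper-quartile factors and -0.11 with the plain library size, where the median of all tested genes moved to -0.17 and -0.16. AT2G37650 (chr2:15792545-15795235, plus strand) had 3.99, 3.97 and 5.12 CPM in 35S:RPS4, against 5.07, 4.72 and 4.14 CPM in Col-0. The groups overlapped, with a log2FC of -0.09 (SE 0.16), which was 0.02 without both replicate 1 libraries.

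AT2G29060 (chr2:12481664-12484420, plus strand) had 0 reads in the 35S:RPS4 libraries and 1 read in the Col-0 libraries together. A count of 0 in the 35S:RPS4 group allows up to 3 reads over its 3 libraries, or 0.0327 CPM. No fold change is given for it, since both groups were at or under that floor, and such floors and intervals cover counting error only. Its protein is the closest to SCL14 among the members, with 73.8% identical residues, and SCL14 was read in all 6 libraries.

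The members also differed in their level in Col-0, compared here per kb of annotated exon. SCL5 was the highest at 13.5 ± 0.610 CPM per kb (SD, n = 3), followed by PAT1 at 11.5 ± 0.789 and SCL13 at 11.2 ± 1.91. The ranges of PAT1 and SCL13 overlapped, while the lowest SCL5 library lay above the highest PAT1 library. AT5G59450 came next at 7.49 ± 0.551 CPM per kb and overlapped with SCL14 at 7.08 ± 0.327. SCL1 (6.21 ± 0.445), SCL21 (4.99 ± 0.252) and AT2G37650 (1.81 ± 0.184) followed without overlap between neighbours in the order, and AT2G29060 was last. The levels divide by all annotated exon, of which SCL21 shares 166 bp with ZAP1 and 110 bp with AT2G04900. How reads over shared exon were counted is not given in the sources used here, so close places in the order could depend on it. In 35S:RPS4 the order began with SCL13 at 82.7 ± 22.5 and AT5G59450 at 75.2 ± 3.26 CPM per kb, whose ranges overlapped, ahead of SCL5 at 20.6 ± 2.00.

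Summed over its 5 genes, the PAT1 branch had 128 ± 26.6 CPM per kb in 35S:RPS4 and 47.4 ± 1.85 CPM per kb in Col-0 (SD, n = 3 each). SCL13 made 63.7% of that sum in 35S:RPS4 and 23.5% in Col-0. The SCL14 branch summed to 84.2 ± 3.82 CPM per kb in 35S:RPS4 and 16.4 ± 0.689 CPM per kb in Col-0. AT5G59450 made 89.3% of it in 35S:RPS4 and 45.7% in Col-0. SCL5, by contrast, made 16.3% of the PAT1-branch sum in 35S:RPS4 and 28.6% in Col-0 (means of 3 libraries), so that it led that branch in Col-0 and SCL13 led it in 35S:RPS4. The SCL14-branch sum and the shares of AT5G59450 in it cover the listed members only, without close relatives by sequence. Of these, AT3G46600 averaged 101 CPM per kb in 35S:RPS4 and 14.9 in Col-0, above AT5G59450 in both groups. AT1G07520 averaged 24.0 and 1.54, and AT2G29065 0.862 and 0.755.

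**Figure D2:**
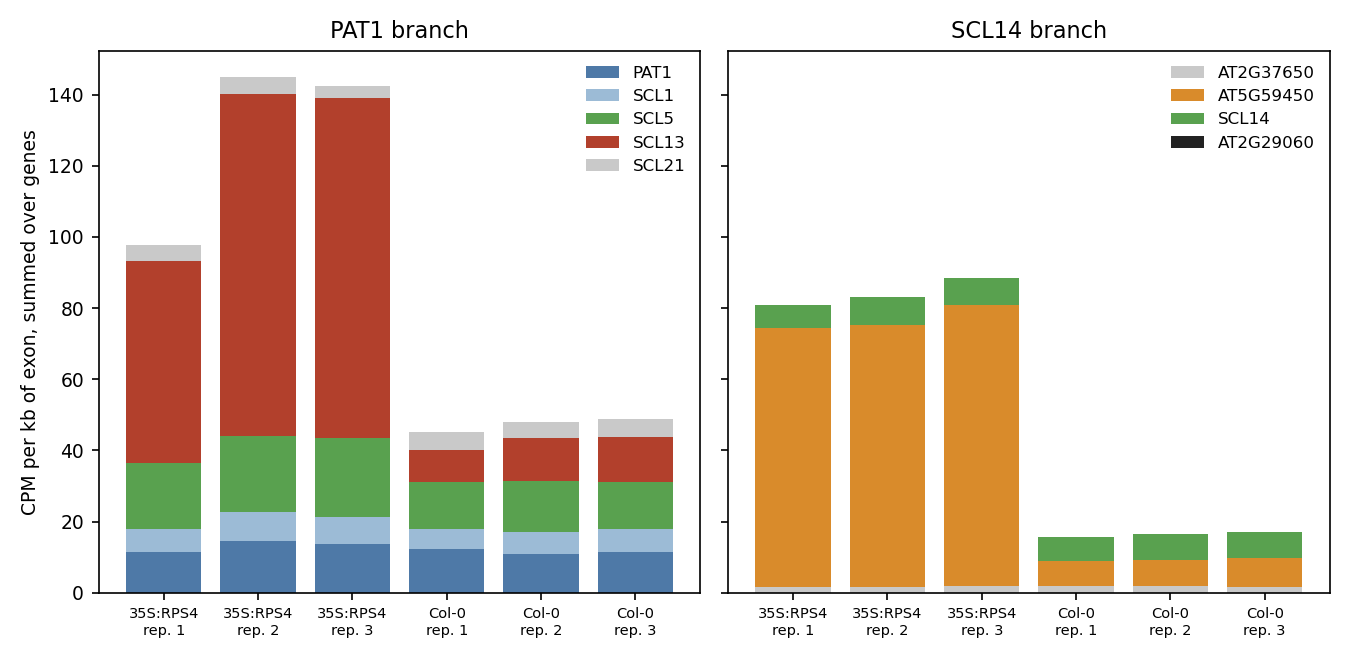
Levels per kb of exon (CPM per kb), stacked by gene, in each 35S:RPS4 and Col-0 library for the PAT1 branch (left panel) and the SCL14 branch (right panel). The sums are 97.7 to 145 in 35S:RPS4 and 45.3 to 48.8 in Col-0 for the PAT1 branch, and average 84.2 in 35S:RPS4 and 16.4 in Col-0 for the SCL14 branch, with SCL13 and AT5G59450 as the segments that differ most.

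The spread between libraries of a group was itself unequal among the members. SCL13 in replicate 1 was at 68.6% of its group mean in 35S:RPS4 and at 80.6% in Col-0. RPS4, the overexpressed receptor, was at 79.9% in 35S:RPS4 replicate 1 and at 78.2% in Col-0 replicate 1. AT5G59450 kept to 96.8 to 105% of its mean in 35S:RPS4 and to 92.6 to 107% in Col-0. A low replicate 1 in both groups was thus shared by SCL13 and RPS4, and AT5G59450 showed it to a smaller degree. Over the whole count table, too, replicate 1 differed most from the other libraries of its group, so the spread is not particular to these genes. Without both replicate 1 libraries SCL13 and AT5G59450 were still the 2 members called.

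**Figure D3:**
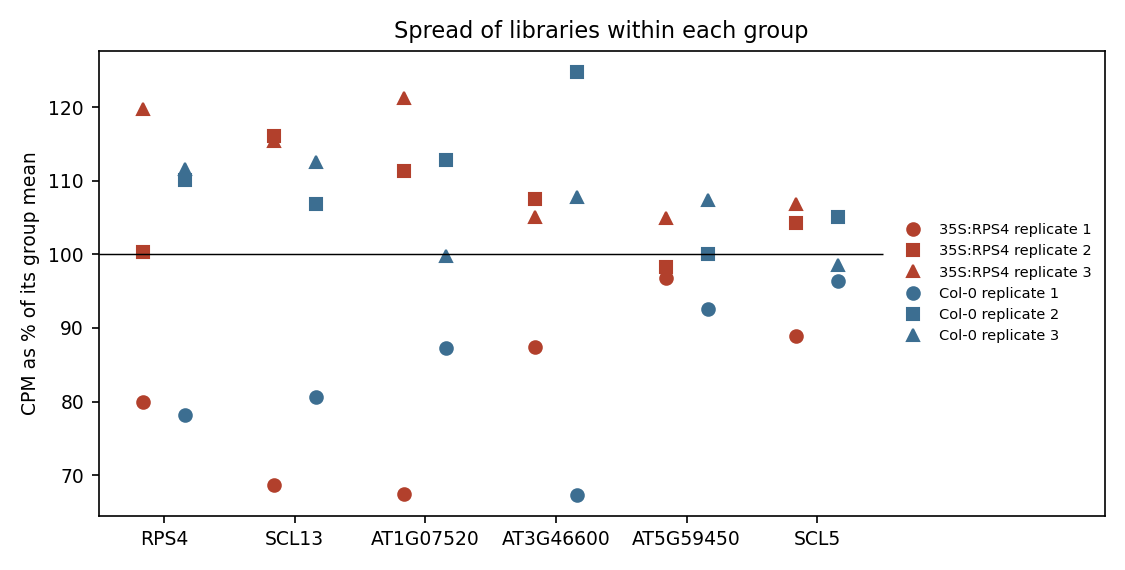
Level in each library as a percentage of the mean of its own group, for RPS4, 3 members and the 2 other raised GRAS genes, with 35S:RPS4 in red and Col-0 in blue. Replicate 1 (circles) lies lowest in each group for all 6 genes, from 67.5% for AT1G07520 in 35S:RPS4 and 67.4% for AT3G46600 in Col-0 to 96.8% for AT5G59450 in 35S:RPS4 and 96.4% for SCL5 in Col-0.

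The family outside the members was taken whole, as 25 further GRAS genes, of which 21 were tested. The sole raised genes among them were AT1G07520 and AT3G46600, and 4 were lowered (edgeR, FDR below 0.01 and log2FC beyond 1). Over all tested genes 6.46% were raised and 1.37% lowered. The median log2FC of the 21 was -0.47, with 6 above and 15 below 0, against a median of 0.01 over all tested genes. The GRAS genes of Arabidopsis thus gave 4 raised among 29 tested, the members SCL13 and AT5G59450 and these 2. At an unadjusted p under 0.05 the test picked 13 of the 21, and 28.0% of all tested genes.

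AT1G07520 (chr1:2309534-2312385, minus strand) had 46.2, 76.1 and 82.9 CPM in 35S:RPS4 replicates 1 to 3, against 3.83, 4.96 and 4.38 CPM in Col-0. Its lowest 35S:RPS4 library lay well above every Col-0 library, and its log2FC of 3.96 (SE 0.25, FDR 0.000108, edgeR) was the largest of the family. The gene lies 1195 bp from SCL14 on the same strand, and SCL14 had a log2FC of 0.05. In TAIR10.1 its whole length falls within exons of FTSH10, a mitochondrial protease gene on the opposite strand, which had a log2FC of 0.03 (SE 0.08). The kit does not mark the strand of a read, so reads of both genes cannot be told apart by strand.

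AT3G46600 (chr3:17157585-17159965, plus strand) had 190, 234 and 228 CPM in 35S:RPS4 replicates 1 to 3, against 21.5, 39.9 and 34.5 CPM in Col-0. The groups were well apart, and the log2FC was 2.76 (SE 0.23, FDR 0.000310, edgeR). Both genes were called without each single library in turn. Their proteins belong beside the SCL14 branch by sequence. AT3G46600 shared 69.3% of aligned residues with AT5G59450, and AT1G07520 shared 65.9% with AT2G29065, the neighbour of AT2G29060 on chromosome 2.

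AT2G29065 itself had 1.31, 1.93 and 2.71 CPM in 35S:RPS4 replicates 1 to 3, against 1.24, 1.79 and 2.19 CPM in Col-0, with a log2FC of 0.18 (SE 0.32, FDR 0.781, edgeR). The groups overlapped, so no difference like that of AT1G07520 was seen in its closest relative, at low levels. PAT1 and SCL21, the closest pair of the PAT1 branch at 70.0% identity, both overlapped between the groups. SCL13 was at most 51.4% identical to any branch mate, with SCL21. Within the PAT1 branch identity ran from 40.2 to 70.0% over 10 pairs, within the SCL14 branch and its 3 relatives from 41.0 to 73.8% over 21 pairs, and between the groups of proteins from 23.4 to 30.1%.

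**Figure D4:**
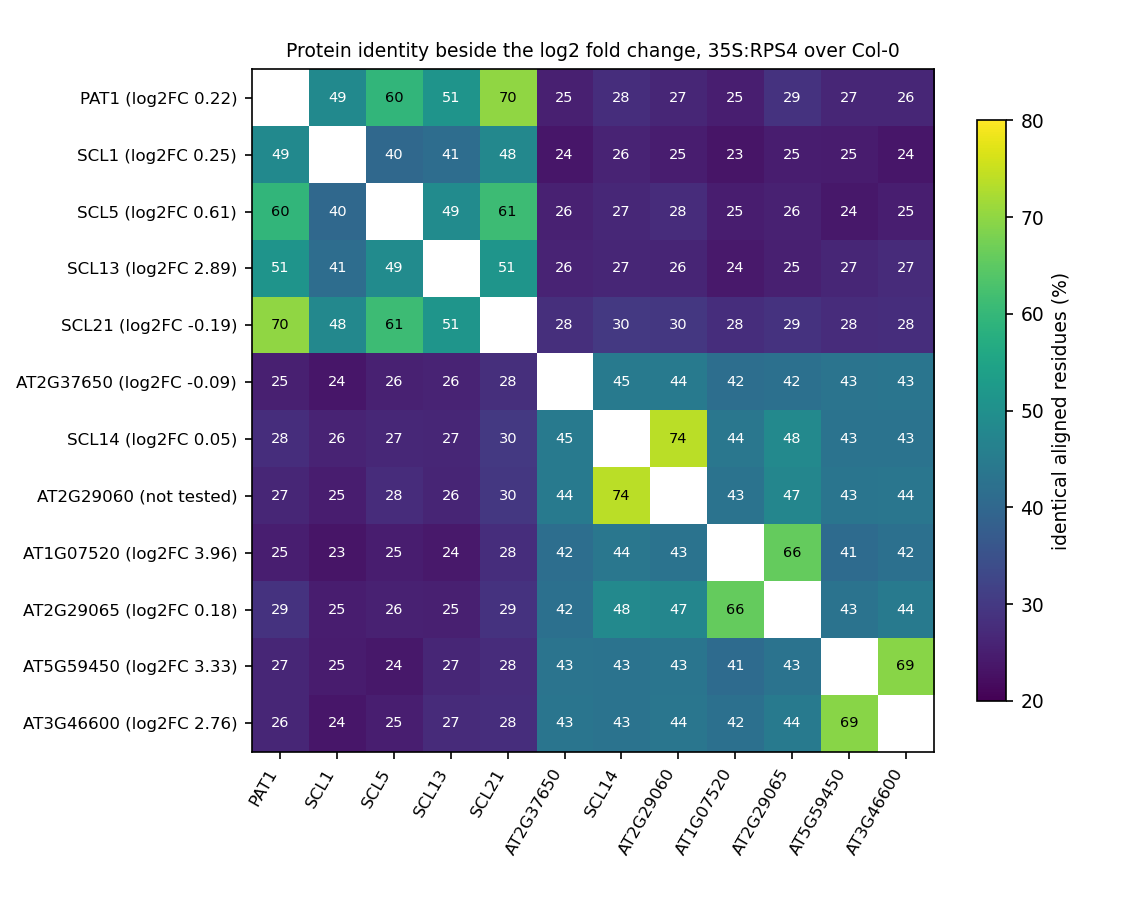
Identical residues (%) between each pair of the 9 member proteins and 3 close relatives, with the log2FC (35S:RPS4 over Col-0) of each gene beside its name. AT5G59450 and AT3G46600 (69.3% identical) have log2FC of 3.33 and 2.76, while AT1G07520 and AT2G29065 (65.9%) have 3.96 and 0.18.

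The 4 lowered GRAS genes lay outside both branches. GAI, a DELLA repressor of gibberellin responses, had 27.6, 19.1 and 18.3 CPM in 35S:RPS4 replicates 1 to 3, against 50.4, 46.3 and 47.2 CPM in Col-0 (log2FC -1.14, SE 0.16, FDR 0.00227, edgeR). SCL23, a relative of SCARECROW, had 14.8, 10.6 and 9.98 CPM in 35S:RPS4, against 24.0, 25.5 and 22.4 CPM in Col-0 (log2FC -1.02, SE 0.15, FDR 0.00308, edgeR). AT3G50650 (log2FC -1.05, SE 0.12) and AT5G66770 (log2FC -1.09, SE 0.14) were lower in 35S:RPS4 to a similar degree. None of these 4 overlapped between the groups.

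The calls of the 4 lowered genes rested on single libraries, although their log2FC stayed between -1.37 and -0.92 with any of them left out. Only AT3G50650 was called without 35S:RPS4 replicate 2 and without Col-0 replicate 3. Only GAI was called without 35S:RPS4 replicate 3, only AT5G66770 without Col-0 replicate 2, and AT3G50650 and AT5G66770 without Col-0 replicate 1. SCL3, which promotes gibberellin responses, had a log2FC of -1.42 (SE 0.32) and an FDR of 0.0225 in edgeR. With the replicate number as a block its FDR was 0.000521 and it was called.

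RGA, a further DELLA repressor, averaged 38.6 ± 2.23 CPM in 35S:RPS4 and 53.6 ± 4.72 CPM in Col-0 (SD, n = 3 each). The groups did not overlap, but its log2FC of -0.47 (SE 0.09) was under the threshold for a call. SCR, the SCARECROW protein that patterns root and leaf cell layers, had a log2FC of 0.15 (SE 0.09, FDR 0.334, edgeR), and its sign turned with upper-quartile factors (-0.03) and the plain library size (-0.02). SCL8 averaged 16.8 ± 1.64 CPM in 35S:RPS4 and 20.7 ± 1.45 CPM in Col-0 (SD, n = 3 each), and had a log2FC of -0.30 (SE 0.10, FDR 0.0903, edgeR).

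**Figure D5:**
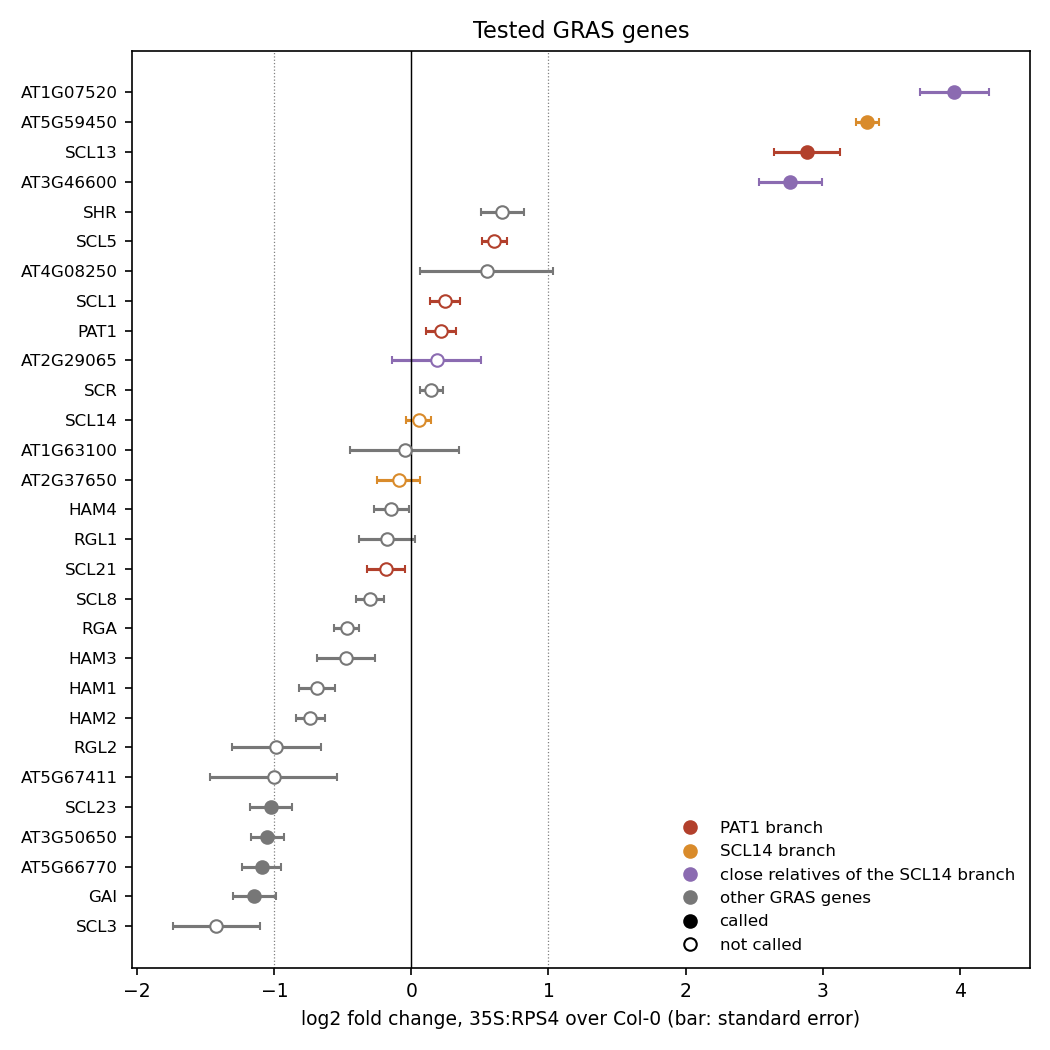
Log2 fold change (35S:RPS4 over Col-0) with its standard error for the 29 tested GRAS genes, filled where called and open where not, with dotted lines at a log2FC of 1 in each direction. The 4 genes above 1 (2.76 to 3.96) belong to the PAT1 branch, the SCL14 branch or its close relatives, and the 4 called below -1 are other GRAS genes.

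Genes that work with the members were read next. Of the TGA factors that recruit SCL14, TGA2 had a log2FC of 0.04, TGA5 of 0.57 and TGA6 of -0.06, none of them called. Of the whole list of 12 TGA and detoxification genes 8 were tested, with 2 raised, 0 lowered and a median log2FC of 0.30. The shares over all tested genes were 6.46% raised and 1.37% lowered. CYP81D8, a cytochrome P450 of the xenobiotic response, had 16.8, 27.7 and 32.2 CPM in 35S:RPS4 replicates 1 to 3, against 0.856, 2.36 and 3.24 CPM in Col-0 (log2FC 3.57, SE 0.45, FDR 0.00188, edgeR). Its groups were far apart, but its call was lost without 35S:RPS4 replicate 2 (FDR 0.0107), without Col-0 replicate 2 (FDR 0.0123) and with no filter on low counts (FDR 0.0111), all in edgeR.

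OPR1, an oxophytodienoate reductase, had 492, 734 and 910 CPM in 35S:RPS4 replicates 1 to 3, against 76.1, 89.9 and 92.0 CPM in Col-0 (log2FC 3.05, SE 0.23, FDR 0.000208, edgeR). GSTU7 and NAC032 of the same list overlapped between the groups, with a log2FC of -0.22 and -0.29, and were not called. Some other detoxification genes of the list were high in a single library. AKR4C9, an aldo-keto reductase, had 0.335, 5.73 and 0.585 CPM in 35S:RPS4 replicates 1 to 3, against 0.380, 0.337 and 0.371 CPM in Col-0. Only replicate 2 of 35S:RPS4 stood out, and AKR4C9 was not called (FDR 0.181, edgeR). GSTU24, a glutathione transferase, and UGT74E2, a glucosyltransferase, were at 6.55 and 3.02 CPM in that library and at 0.303 CPM or less in the others, too low to be tested. CYP81D11 and GSTU25, also not tested, were at 1.19 and 0.373 CPM in 35S:RPS4 replicate 2 and at 0.0671 CPM or less in the others.

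Of 12 phytochrome signalling genes 11 were tested, with 0 raised and 1 lowered and a median log2FC of -0.04. Among all tested genes 6.46% were raised and 1.37% lowered. PKS1, a phytochrome kinase substrate, had 3.76, 2.92 and 1.72 CPM in 35S:RPS4 replicates 1 to 3, against 13.7, 14.5 and 13.8 CPM in Col-0. All 35S:RPS4 libraries of PKS1 lay far below Col-0, with a log2FC of -2.32 (SE 0.24, FDR 0.000642, edgeR). PHYA, the photoreceptor upstream of PAT1 and SCL21, had a log2FC of -0.04 (SE 0.09, FDR 0.819, edgeR). PHYB, the photoreceptor of the pathway in which SCL13 is known, had a log2FC of -0.21 (SE 0.08, FDR 0.143, edgeR). For FHY1 it was -0.64 (SE 0.14, FDR 0.0187, edgeR), and neither gene was called. PKS1, PHYB and FHY1 were the 3 listed genes without overlap between the groups, with 35S:RPS4 below, as were 16.3% of all tested genes. Of 6 ERF genes known to act with or beside PAT1 in wounding, 1 was tested. That gene, WIND1, had a log2FC of -0.05 (SE 0.10), and ERF115, the best known partner of PAT1, had 0 reads in 35S:RPS4 and 1 read in Col-0.

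The genes whose levels over the 6 libraries followed AT5G59450, the member of largest log2FC, most closely were ERF13, AT3G09870, AT1G33760, PBP1 and ERF5. Their Pearson correlations on log2(CPM + 0.5) were 0.9995 to 0.9997. ERF13 and ERF5 are ethylene response factors, and AT3G09870 is annotated as a SAUR-like auxin-responsive protein. A correlation over 0.99 was found for 292 genes, and since the points fall into the 2 genotypes it describes mainly the difference between these, with libraries that share their depth.

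Overlapping and neighbouring genes were also read. AT5G59460, which overlaps the 3′ end of AT5G59450 by 69 bp on the opposite strand, had a log2FC of -0.15 (SE 0.14). TAIR10.1 also annotates AT5G08920 on the opposite strand over 1402 bp of AT5G59450 exon, and the count table holds no values for AT5G08920. The kit does not mark the strand of a read, so any reads of AT5G08920 there could not be told from those of AT5G59450 by strand. SCL21 overlaps ZAP1 by 166 bp and AT2G04900 by 124 bp, and both had a log2FC near 0 (0.00 and 0.01). AT2G37650 overlaps AT2G37660 by 23 bp, a gene at 472 CPM in 35S:RPS4 and 470 CPM in Col-0. SCL1 overlaps SWEET1, a sugar transporter gene with a log2FC of -0.61 (SE 0.29), by 52 bp. SCL13 overlaps no annotated gene, and AT4G17240, which lies 2629 bp upstream of it on the same strand, had 14.3 CPM in 35S:RPS4 and 7.64 CPM in Col-0 (log2FC 0.90, SE 0.16, FDR 0.00652, edgeR).

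The coding sequence is uninterrupted in 7 of 9 members, with PAT1 and SCL5 as the exceptions in their longest model. AT5G59450 is the sole member whose longest coding model has 1 exon, while SCL13 has an intron outside its coding sequence. The encoded proteins have 413 residues for SCL21, 529 for SCL13, 610 for AT5G59450 and 769 for SCL14, the longest.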

How the data were processed

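Polyadenylated RNA was sequenced by the authors after preparation with the Illumina TruSeq v2 kit, which does not mark strand, and the deposited values are raw read counts per gene, not normalised, in 1 column per library. The submitters' processing notes name FastQC 0.11.2, TopHat2 2.0.10, HTSeq and the TAIR10 genome. Their roles and settings are not given in the sources used here. Summary entries that name no gene held 6.45 to 8.30% of counts per library and were set aside. All columns belonged to the 6 libraries.

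The counts were fitted in edgeR 4.0.16 (R 4.3.3) with TMM factors, the default low-count filter, robust quasi-likelihood dispersions and genotype as the sole term, two-sided, with the study's thresholds (FDR below 0.01, log2FC beyond 1). Tested on simulated data for this comparison over 18278 genes, it recovered 98% of planted changes of 1.5 log2 units and 100% of those of 2.5, and called 0 unchanged genes. The simulated libraries were independent, with the same dispersion for every gene and no replicate effect. Changes were planted only in genes with a mean above 1 CPM. These rates therefore do not measure the error rates in the real libraries. CPM used the TMM factors, and levels per kb the union of exons in RefSeq TAIR10.1, which also gave names, positions and promoter windows for the 31912 genes it matched. Proteins were translated from the longest coding model and aligned with MAFFT 7.526. Identity was counted over positions aligned in both.

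The members and lists were chosen with earlier results of these data known. Named are the members, RPS4, branch relatives, called GRAS genes, GAI, RGA and SCR, called genes of each list (at most 4) and the 5 genes most like the member of largest log2FC. SCL3, AKR4C9, GSTU7, NAC032, GSTU24, GSTU25, CYP81D11 and UGT74E2 were named after their values were seen. So were PHYA, PHYB, FHY1, WIND1, ERF115, PYK10, RGL3, the TGA factors and the neighbouring genes. Alternatives were other filters, scalings, thresholds, DESeq2 1.42.0, limma voom 3.58.1, a replicate block and leaving out libraries. Deviations from group means correlated across genes at 0.43, 0.13 and 0.28 for libraries of 35S:RPS4 and Col-0 that carry replicate numbers 1, 2 and 3 in their titles, and at -0.36 to 0.16 for the 6 pairs of unlike number. Each same-numbered pair was above 0.1, the rule by which the numbers were taken as pairs, although the pair numbered 2 was below 1 unlike pair. Above 0.1 were also 35S:RPS4 replicate 2 with Col-0 replicate 3 (0.158) and 35S:RPS4 replicate 3 with Col-0 replicate 2 (0.127). The rule therefore does not set the pairs numbered 2 and 3 apart from unlike pairs. The main fit does not use these pairs, so its standard errors, FDRs and calls leave the pairing out. The fit with the replicate block is given below as an alternative. Libraries of a group differed by a chi-square of 8.06 to 38.1 per gene, so none was a repeat of another. Replicates 2 and 3 differed by 8.06 in Col-0 and 9.39 in 35S:RPS4, and the pairs with replicate 1 by 24.5 to 38.1. Replicate 1 thus stood apart in both groups.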

Additional observations from a re-analysis of the deposited data

How the results depend on the processing

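SCL13 and AT5G59450 were called, and no other member, under all 16 alternatives that refitted or rescaled the counts, with a log2FC of 2.70 to 3.09 and 3.15 to 3.38, and SCL5 was called as well with no fold threshold. With upper-quartile factors and with the plain library size, where the median of all genes moved to -0.17 and -0.16, PAT1 was at 0.034 and 0.048, SCL1 at 0.065 and 0.079, SCL5 at 0.42 and 0.44, and SCL14 at -0.13 and -0.11, and AT2G37650 was at -0.27 with the first of these. Lowered genes over the whole table, 251 in the main fit, numbered 391 with upper-quartile factors, 377 with the plain library size and 381 at an FDR below 0.05. They numbered 476 with no fold threshold, 404 without both replicate 1 libraries (chosen after seeing the data) and 99 to 337 with 1 library left out. Raised genes, 1188 in the main fit, numbered 841 to 1374 with 1 library left out, 1408 in DESeq2 and 1442 without both replicate 1 libraries. Lowered GRAS genes outside the members numbered 7 with no fold threshold and 1 to 5 with 1 library left out. Raised TGA and detoxification genes numbered 1 with no filter on low counts and 1 to 2 with 1 library left out. The causes were not tested beyond what each setting changes by construction.

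With the replicate number as a block, pairing libraries of the same number, 1329 genes were raised and 330 lowered, and the members called were again 2 raised and 0 lowered. The standard error of SCL13 was 0.08 with the block, for a log2FC of 2.86. SCL3 was gained, giving 5 lowered GRAS genes outside the members, and no other call of the named genes changed. Where a group has 2 libraries left, the calls rest on fewer samples. AT2G29060 and 4 GRAS genes outside the members had too few reads to pass the filter on low counts. RGL3, one of these, was tested under 6 alternatives, with a log2FC of -1.70 to -1.12, and was called under none of them.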
